A study of Mus musculus with 18 samples.

Results

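Iron handling in the liver was described here through 10 genes, measured by RNA-seq in 18 mouse livers. They are hepcidin (Hamp) and its neighbouring copy Hamp2, the hepcidin inducer Bmp6, the iron sensor Tfr2 and the BMP target Id1. The others are transferrin (Trf), the transferrin receptor (Tfrc), the iron exporter ferroportin (Slc40a1) and the ferritin chains Fth1 and Ftl1. The genes were chosen by symbol, and all 10 were found among the 19057 genes listed.

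All livers came from ICR mice at 10 weeks of age, in 6 groups of 3 libraries. Con males had regular diet and saline. HS males ate high-fat diet beginning at 3 weeks and were injected at 5 weeks with 85 mg/kg streptozotocin (STZ), a compound that kills pancreatic beta cells. The groups A10-FMT and Con-FMT had the HS treatment and were also given a fecal microbiota transplant (FMT) by mouth from 5 to 7 weeks. The transplant was the small-intestinal content of pooled donors that had been dosed with alginate oligosaccharide (AOS) at 10 mg/kg, for A10-FMT, or with water, for Con-FMT. The groups A10 (AOS alone, 10 mg/kg) and HS+A10 (AOS at the same dose on top of the HS treatment) are known from the sample labels alone, which do not give their diet or dosing schedule in more detail. The comparisons of A10-FMT, Con-FMT and HS+A10 with HS all use the same 3 HS libraries.

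As background, hepcidin is a peptide hormone secreted by hepatocytes that binds ferroportin and causes its breakdown, so that less iron leaves macrophages, hepatocytes and the gut. Hamp transcription is raised by BMP signals through SMAD proteins, which report iron stores, and by interleukin-6 through STAT3, which reports inflammation. Iron uptake and storage are also controlled at the level of the mRNA, by iron-responsive elements, short stem-loops bound by iron regulatory proteins when iron is low. Binding in the 3′ UTR stabilises the Tfrc mRNA, whereas binding in the 5′ UTR holds back translation of the ferritin and ferroportin mRNAs, so that the mRNA level of the latter need not follow the protein.

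Values are RPKM, read counts divided by the length of the gene and by the reads of the library, so that levels can be compared between genes. Differences are on the log2(RPKM + 1) scale and were called at an adjusted p under 0.05 (limma, Benjamini-Hochberg adjustment over the 10204 genes that averaged 1 RPKM or more). Of the 10 genes, 9 were tested, and Bmp6, with a mean of 0.773 RPKM, was not. With 3 libraries against 3, the smallest p of an exact two-sided permutation test is 0.1, and this p was reached by every pair of groups said below not to overlap.

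Some libraries stood apart. Con replicate 3 and A10 replicate 3 lay between the other 2 libraries of their group for 95.5% and 94.1% of the genes in which those differed by more than 0.5 on the log2 scale, against 24.0% to 72.9% for the remaining 16 libraries. Whether these libraries are independent of the other 2 is not given in the sources used here, and the n of 3, the SDs and the p-values of Con and A10 carry that limit. Con-FMT replicate 3 held pancreatic acinar mRNAs, with 9 markers summed to 19042 RPKM against 14.1 to 50 in the other 17 libraries. The 5 hepatocyte markers summed to 35411 to 63477 RPKM, with Alb at 21271 to 37253 RPKM, and in HS vs Con Apob was called higher (0.33, adjusted p = 0.0359) and Ttr lower (-0.47, adjusted p = 0.0495). The 6 stellate cell markers summed to 87.5 to 102 RPKM in HS and 40.5 to 69.3 RPKM in Con. Of these, 3 of 6 were called higher in HS, beside 15.9% of all genes. The erythroid sum, made up mainly of globin mRNAs, was 4435 to 12415 RPKM in HS and 1582 to 3124 in Con. The median difference over all tested genes was 0.14 in HS vs Con, -0.16 in A10-FMT vs HS and -0.12 in Con-FMT vs HS, and single genes are to be read against it.

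**Figure D1:**
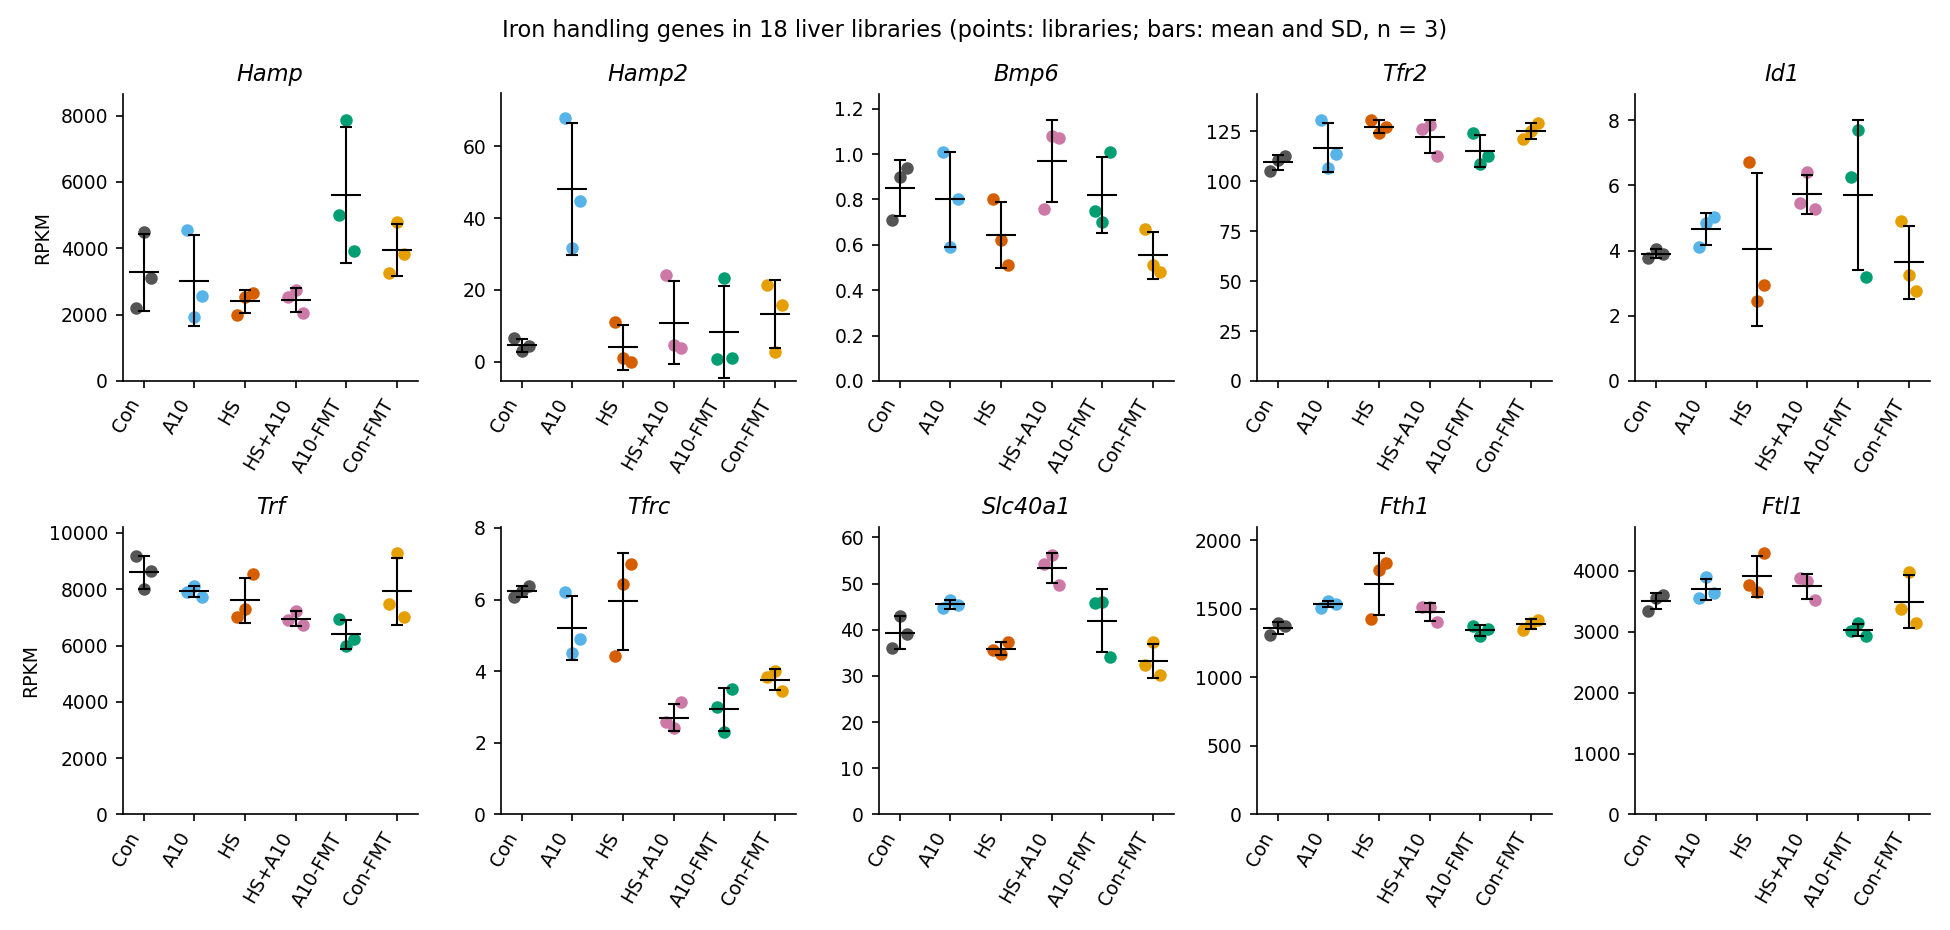
RPKM (y axis, from 0 except where an error bar reaches lower) of the 10 genes in each group (x axis), with points for libraries and bars for the mean and SD of 3 libraries. Hamp was highest in A10-FMT, Hamp2 in A10, and Tfrc was lower in HS+A10, A10-FMT and Con-FMT than in Con, A10 and HS.

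Hepcidin was among the most abundant mRNAs of these livers. Hamp ranked 26th of all genes by its mean, 3446 RPKM, beside Ftl1 (rank 25, 3561 RPKM) and below Trf (rank 15, 7568 RPKM). Hamp2, its copy, had a mean of 14.9 RPKM, and the inducer Bmp6 was close to the limit of detection. Id1, Tfrc and Slc40a1 had means of 4.62, 4.47 and 41.6 RPKM.

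Hamp was higher in A10-FMT than in HS. It was at 5010, 7878 and 3905 RPKM in A10-FMT and at 1993, 2531 and 2662 RPKM in HS, so that the groups did not overlap and the mean was 2.34-fold higher. The difference of 1.17 (SE 0.32) had an adjusted p of 0.0169. It rested in part on A10-FMT replicate 2, the highest library, without which it was 0.90 with an adjusted p of 0.0808.

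In Con-FMT, Hamp was at 3244, 4791 and 3835 RPKM, again above all HS libraries. The difference from HS of 0.72 (SE 0.32) had an adjusted p of 0.115 and was not called. A10-FMT and Con-FMT overlapped, and their difference of 0.46 (95% confidence interval -0.22 to 1.13) had an adjusted p of 0.349. A difference between recipients of AOS donors and of control donors was thus not shown for Hamp.

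Without a transplant Hamp varied as widely within groups as between them. It was at 2210, 4496 and 3113 RPKM in Con, and at 4564, 1927 and 2566 RPKM in A10. In HS+A10 it was at 2537, 2731 and 2035 RPKM, which overlapped HS. The differences were -0.40 in HS vs Con (adjusted p = 0.385), 0.02 in HS+A10 vs HS (adjusted p = 0.974) and -0.15 in A10 vs Con (adjusted p = 0.876). By group mean Hamp ran from HS through HS+A10, A10, Con and Con-FMT to A10-FMT, and each neighbour in this order overlapped the next.

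Hamp2 did not follow Hamp. It was at 67.9, 31.8 and 44.7 RPKM in A10 and at 6.5, 2.96 and 4.32 RPKM in Con. These groups did not overlap, with a 10.5-fold difference of the means, but the difference of 3.12 (SE 1.02) had an adjusted p of 0.223 and was not called (0.688 without replicate 3 of both groups). In A10 vs Con only 0.0686% of all genes were called, none of them among the 10.

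In HS, HS+A10 and A10-FMT 1 library was above the other 2 in Hamp2, and in Con-FMT 2 were above the third. It was at 11.2, 0.94 and 0 RPKM in HS, at 24.2, 4.71 and 3.80 RPKM in HS+A10, at 0.90, 23.2 and 1.08 RPKM in A10-FMT and at 21.4, 2.71 and 15.8 RPKM in Con-FMT. HS replicate 3, listed at 0 for Hamp2, had 2662 RPKM of Hamp. Over the 18 libraries, which share their groups and their processing, the correlation of the pair was -0.01 (Pearson's r) and -0.15 (Spearman's rho).

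**Figure D2:**
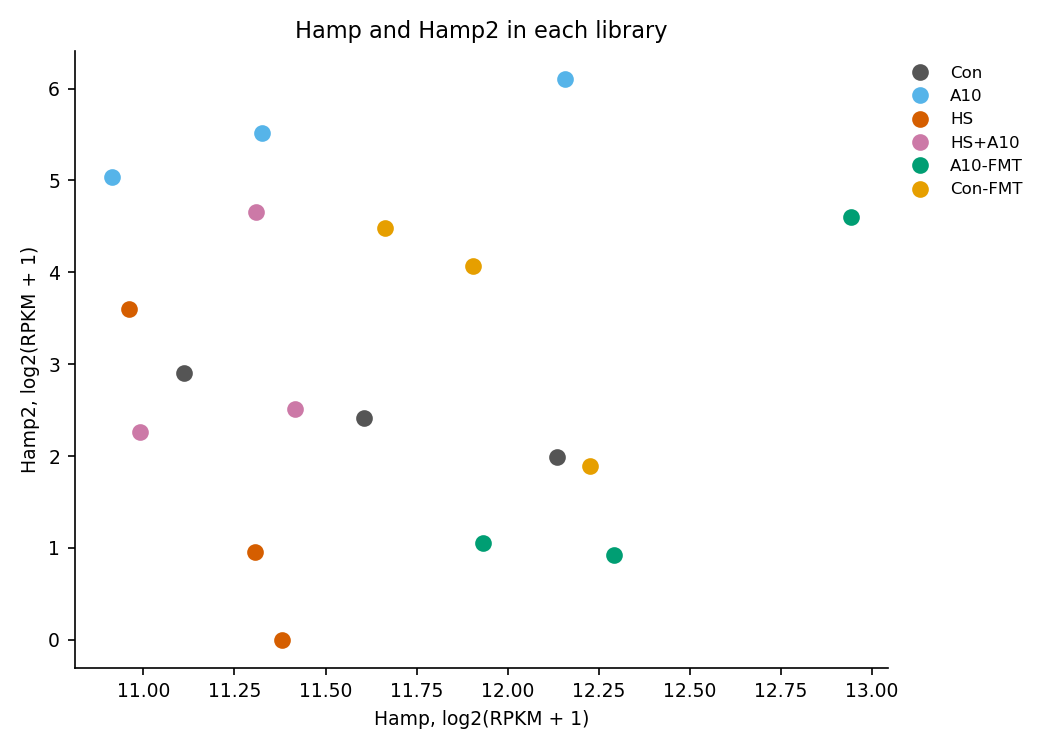
Hamp (x axis) against Hamp2 (y axis), both as log2(RPKM + 1), with 1 point per library coloured by group. The 3 A10 libraries are the highest in Hamp2 at Hamp levels of 1927 to 4564 RPKM, and A10-FMT replicate 2 is the highest in Hamp.

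The sequences of the copies show how far reads of one can be told from the other. Hamp lies on chromosome 7 at chr7:30942368-30944032 and Hamp2 at chr7:30922372-30924681, both on the minus strand (GRCm38). Their transcripts were identical at 94.6% of 410 aligned bases, with a longest identical run of 87 bases, and only 3 of the first 200 bases differed. Of the 16 differences in the coding sequence, 14 fell in its last 75 bases, which encode the mature hepcidin peptide. These are shown here with the differing bases in capitals, because they are what separates the copies.
Hamp: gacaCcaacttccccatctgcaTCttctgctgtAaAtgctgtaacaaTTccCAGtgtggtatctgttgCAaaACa
Hamp2: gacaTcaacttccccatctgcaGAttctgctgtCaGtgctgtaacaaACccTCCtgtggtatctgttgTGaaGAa
The study's mapping allowed mismatches, so reads from the 5′ part of the mRNAs could be assigned to either gene, and the level of Hamp2, the lower of the pair, is uncertain. In HS replicate 3 Hamp2 was listed at 0 beside 2662 RPKM of Hamp.

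The promoters of the copies were also compared, as regulation by BMP and STAT3 signals acts there. The stretch from 150 to 11 bases before the start is shown, from RefSeq on GRCm38.p6, minus strand, with matches in capitals to GGCGCC, the core of the BMP response element, and to TTCNNNGAA, the STAT motif. Both motifs read the same on either strand and did not overlap each other.
Hamp, chr7:30944040-30944179: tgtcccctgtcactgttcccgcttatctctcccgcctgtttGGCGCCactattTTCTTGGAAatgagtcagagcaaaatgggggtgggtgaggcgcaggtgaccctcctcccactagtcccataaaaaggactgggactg
Hamp2, chr7:30924192-30924331: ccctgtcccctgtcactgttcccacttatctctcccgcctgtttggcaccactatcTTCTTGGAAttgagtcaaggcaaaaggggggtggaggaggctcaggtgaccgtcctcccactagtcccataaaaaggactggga
Hamp held both motifs, at -109 and -97 from the start. Hamp2 held the STAT motif at -94, and the letters that align with the BMP element were GGCACC, G4A counted from the first base of the motif. Of 32851 promoter windows of 300 bases, 11.9% held GGCGCC, 8.3% held TTCNNNGAA and 0.645% held both. Of the other genes described, Tfrc held GGCGCC, at -89 in 1 of its 2 windows, and no window of Tfr2, Ftl1, Bmp6 or Fth1 held either. Id1, Trf and Slc40a1 had no window in the promoter set and were not searched.

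None of Bmp6, Tfr2 and Id1, which act with or upstream of hepcidin, was called in any comparison. Bmp6, the ligand from sinusoidal endothelial cells that induces hepcidin, lay between 0.48 and 1.08 RPKM in all libraries. It was at 1.08, 1.07 and 0.76 RPKM at the most, in HS+A10, and at 0.67, 0.51 and 0.48 RPKM at the least, in Con-FMT. Without the filter on low values none of its differences was called, and the smallest adjusted p was 0.2, for HS+A10 vs HS.

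Tfr2, the hepatocyte sensor of transferrin-bound iron, had the narrowest range of the 10 genes, 105 to 131 RPKM. It was at 124 to 131 RPKM in HS and at 105 to 113 RPKM in Con, which did not overlap, with a difference of 0.22 (SE 0.08, adjusted p = 0.0771). Among all genes 36.8% did not overlap between these groups. In the other 4 groups it lay between 107 and 131 RPKM, and no comparison was called.

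Id1, a transcription regulator induced by BMP signals along with hepcidin, was spread widely within HS, at 6.73, 2.44 and 2.95 RPKM, and within A10-FMT, at 6.25, 7.71 and 3.20 RPKM. It was at 3.77 to 4.06 RPKM in Con, 4.12 to 5.04 in A10, 5.28 to 6.42 in HS+A10 and 2.77 to 4.90 in Con-FMT. The difference was 0.51 (SE 0.27) in HS+A10 vs HS, with an adjusted p of 0.268, and 0.45 in A10-FMT vs HS, with an adjusted p of 0.241. HS replicate 1 was the high library, and without it the first of these was 0.86 with an adjusted p of 0.0292 and the second 0.80 with an adjusted p of 0.0264. Id1 and Hamp did not vary together (Pearson's r = 0.07 over the 18 libraries).

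Among 21 other genes of the BMP and SMAD pathway, 18 were tested. In A10-FMT vs HS 1 of 18 was called higher and 1 lower, where 2.09% of all genes were called higher and 21% lower. Smad7, an inhibitory SMAD that BMP signals induce, rose from 2.12 ± 0.31 to 3.46 ± 0.54 RPKM (SD, n = 3). Fgl1, a secreted liver protein reported to bind BMP6, fell from 505 ± 230 to 148 ± 24.9 RPKM. In HS+A10 vs HS 1 of 18 was called higher and 2 lower, where 2.95% of all genes were called higher and 4.37% lower. There Fgl1 (to 107 ± 9.65 RPKM) and the BMP target Id3 (from 48.6 ± 10.8 to 24.5 ± 2.23 RPKM) fell and the ligand Bmp2 (from 2.39 ± 0.23 to 3.85 ± 0.43 RPKM) rose. In Con-FMT vs HS 4 of 18 fell and 0 rose, where 19% of all genes were called lower, with the smallest adjusted p for the BMP receptor Acvr1 (4.8 ± 0.34 to 2.79 ± 0.19 RPKM), the co-receptor hemojuvelin Hfe2 (26.2 ± 1.41 to 13.5 ± 2.68 RPKM) and the inhibitory Smad6 (2.22 ± 0.46 to 0.95 ± 0.24 RPKM). Comparing A10-FMT with Con-FMT, 4 of 18 were called higher and 1 lower, where 6.72% of all genes were called higher and 12% lower. Acvr1, Smad6 and Smad7 were all above their Con-FMT levels in A10-FMT (differences of 0.62, 0.61 and 0.60, adjusted p = 0.00102, 0.00679 and 0.0119). In HS vs Con the receptor Bmpr1a alone was called, from 5.13 ± 0.21 to 6.75 ± 0.31 RPKM, where 15.9% of all genes were called higher. The median difference of these 18 genes was 0.13 in HS vs Con, -0.12 in A10-FMT vs HS, -0.16 in Con-FMT vs HS and 0.08 in A10-FMT vs Con-FMT, beside 0.14, -0.16, -0.12 and -0.03 over all genes.

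Interleukin-6 signalling and acute-phase genes, the inflammatory arm of hepcidin control, separated the transplant groups. Of 13 tested, 9 were called lower and 0 higher in A10-FMT compared with Con-FMT, where 12% of all genes were called lower and 6.72% higher. Stat3 was at 16.8 ± 0.83 against 37.1 ± 8.67 RPKM, its target Socs3 at 3.81 ± 2.32 against 19.9 ± 10.7 RPKM and the fibrinogen chain Fgg at 1780 ± 225 against 3397 ± 268 RPKM. Against HS, 3 fell in A10-FMT (Stat3, Fgg and Fga), where 21% of all genes fell, and 5 rose in Con-FMT, where 4.61% of all genes rose. Among the latter were Socs3 from 2.96 ± 1.64, Il6ra from 6.90 ± 1.18 to 14.9 ± 4.95 and Saa2 from 84.6 ± 49.9 to 787 ± 217 RPKM. In HS+A10 the same 3 genes, Stat3, Fgg and Fga, fell, beside 4.37% of all genes. In A10-FMT vs HS Stat3 mRNA was lower, at a difference of -0.69 (SE 0.13, adjusted p = 0.00337), and its target Socs3 was not called (0.25, adjusted p = 0.628). STAT3 activity was not measured, and its part in the level of Hamp was not tested.

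In HS vs Con, 1 acute-phase gene rose, Creb3l3, a liver transcription factor, from 95.8 ± 9.83 to 144 ± 30.9 RPKM, and 3 fell, among them Saa2 from 3715 ± 3360 and Saa3 from 187 ± 161 to 13.4 ± 4.29 RPKM. Of all genes, 15.9% were called higher and 1.87% lower in that comparison. Saa2 was likewise called in A10 vs Con, at 62.6 ± 43.9 RPKM. The Con libraries were far apart in these serum amyloid genes. The median difference of the 13 genes was -1.08 in A10-FMT vs Con-FMT and 0.42 in Con-FMT vs HS, beside -0.03 and -0.12 over all genes.

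Transferrin receptor mRNA gave the clearest difference among the 10 genes. Tfrc was at 6.06, 6.23 and 6.39 RPKM in Con, at 6.22, 4.52 and 4.91 RPKM in A10 and at 4.42, 6.44 and 6.98 RPKM in HS. It was at 2.59, 2.40 and 3.13 RPKM in HS+A10, at 3.01, 2.30 and 3.49 RPKM in A10-FMT and at 3.84, 4.01 and 3.45 RPKM in Con-FMT. All 9 libraries of the latter 3 groups lay below all 9 of the former 3. This split was drawn after the values were seen and places HS with Con and A10. The share of all genes that separate in the same way was not computed.

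Against HS, Tfrc fell by 0.89 (SE 0.14, adjusted p = 0.00394) in HS+A10, by 0.81 (SE 0.14, adjusted p = 0.00195) in A10-FMT and by 0.53 (SE 0.14, adjusted p = 0.0157) in Con-FMT. On the RPKM scale HS was 2.2-fold, 2.03-fold and 1.58-fold higher. The call in A10-FMT held under all 14 alternatives run, that in HS+A10 under 12 of 13, and that in Con-FMT under 10 of 14. Without HS replicate 2 or HS replicate 3 the last had adjusted p-values of 0.0594 and 0.069, and without Con-FMT replicate 3, which held the acinar mRNAs, it was -0.48 with an adjusted p of 0.0484. A10-FMT and Con-FMT overlapped, with a difference of -0.29 (adjusted p = 0.179).

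HS itself did not differ from Con in Tfrc beyond its spread (-0.08, 95% confidence interval -0.38 to 0.23, adjusted p = 0.735), nor did A10 (-0.23, adjusted p = 0.508). The 4 groups with diet and STZ were together lower than the other 2 groups, by 0.52 (SE 0.09, adjusted p = 0.000433), which without Con replicate 3 and A10 replicate 3 was -0.53 with an adjusted p of 0.0051, although HS alone overlapped Con and A10. The response to AOS was -0.89 with diet and STZ and -0.23 without, and the difference between these of -0.66 (SE 0.20) had an adjusted p of 0.202. By group mean the order was Con, HS, A10, Con-FMT, A10-FMT and HS+A10, and only A10 and Con-FMT did not overlap among neighbours.

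Tfrc also held the most matches to a pattern of the iron-responsive element. The elements were searched as a C, 5 paired bases, the loop CAGTGN with a last base other than G, and 5 bases that pair with the first 5, on the transcript strand. Of 21877 protein-coding genes, 222 (1.01%) held at least 1 such element and 1, Tfrc, held at least 4. Tfrc held 4 in its 3′ UTR, Fth1, Ftl1 and Slc40a1 held 1 each in the 5′ UTR, and the other 6 genes held none. They are shown with the loop in capitals, on GRCm38, because they mark the 4 mRNAs that iron regulatory proteins bind.
Tfrc, chr16:32631219-32631248, plus strand: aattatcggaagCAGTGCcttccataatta
Tfrc, chr16:32631598-32631627, plus strand: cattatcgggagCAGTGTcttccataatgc
Tfrc, chr16:32631663-32631692, plus strand: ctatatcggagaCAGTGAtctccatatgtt
Tfrc, chr16:32631710-32631739, plus strand: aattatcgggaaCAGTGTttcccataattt
Fth1, chr19:9982732-9982761, plus strand: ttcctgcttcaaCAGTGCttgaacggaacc
Ftl1, chr7:45459778-45459807, minus strand: gtcttgcttcaaCAGTGTttgaacggaaca
Slc40a1, chr1:45925464-45925493, minus strand: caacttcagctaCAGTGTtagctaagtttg
The loop and stem are the same in kind in both UTRs, and their place differs.

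The ferritin mRNAs, whose proteins store iron, had their highest group means in HS. Fth1 was at 1423, 1784 and 1836 RPKM in HS and at 1307 to 1396 RPKM in Con, a difference of 0.30 (SE 0.09, adjusted p = 0.0338). It was at 1301 to 1377 RPKM in A10-FMT and at 1347 to 1416 RPKM in Con-FMT, both below all HS libraries. Against HS it fell by 0.31 (SE 0.09, adjusted p = 0.0215) in A10-FMT and by 0.27 (SE 0.09, adjusted p = 0.0412) in Con-FMT. HS+A10, at 1403 to 1517 RPKM, overlapped HS (-0.18, adjusted p = 0.233).

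These Fth1 differences depended on the scaling. With each library scaled to the same median they were 0.11 (adjusted p = 0.483) in HS vs Con, -0.12 (adjusted p = 0.412) in A10-FMT vs HS and -0.15 (adjusted p = 0.24) in Con-FMT vs HS. Without Con replicate 3, which stood apart, the first was 0.31 with an adjusted p of 0.0775, and it was also lost without Con replicate 1, HS replicate 2 or HS replicate 3. The call in A10-FMT was lost in 4 of 6 fits that left out 1 library (HS replicates 2 and 3 and A10-FMT replicates 2 and 3, adjusted p = 0.0868, 0.0909, 0.0743 and 0.0573). The call in Con-FMT was lost in 5 of 6, with HS replicate 1 the exception (adjusted p of 0.143, 0.156, 0.111, 0.0799 and 0.0648 without HS replicates 2 and 3 and Con-FMT replicates 1, 2 and 3). The erythroid sum was at 4435 to 12415 RPKM in HS, 1692 to 2626 RPKM in A10-FMT and 1231 to 5736 RPKM in Con-FMT. HS and Con-FMT thus overlapped in this sum but not in Fth1. The part of the erythroid sum in the Fth1 differences was not tested. In that list 6 genes were tested. Hba-a1 was called in all 3 comparisons and was the only 1 called in the first 2, and Alas2, an enzyme of heme synthesis, had differences of -0.15, -0.04 and 0.35, none of them called, whereas the red cell membrane genes Slc4a1 and Epb42 were at most 0.26 RPKM in HS.

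Ftl1 had a mean of 3561 RPKM, the higher of the chains. It was at 3659 to 4289 RPKM in HS and at 3017, 3139 and 2930 RPKM in A10-FMT, which did not overlap, and it fell by 0.36 (SE 0.10, adjusted p = 0.0159). Scaled to the same median the difference was -0.17 (adjusted p = 0.346), and it was not called without HS replicate 3 (adjusted p = 0.0688) or A10-FMT replicate 3 (adjusted p = 0.0596). Ftl1 was at 3346 to 3594 RPKM in Con, 3557 to 3894 in A10, 3515 to 3888 in HS+A10 and 3140 to 3972 in Con-FMT, and none of its other differences was called. That in HS vs Con was 0.16 (adjusted p = 0.266), beside a median of 0.14 over all genes.

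Ferroportin mRNA was higher where AOS was given with diet and STZ. Slc40a1 was at 54.2, 56.1 and 49.7 RPKM in HS+A10 and at 35.7, 34.8 and 37.4 RPKM in HS, without overlap. The difference of 0.56 (SE 0.11, adjusted p = 0.00943), a 1.48-fold higher mean, held under all 14 alternatives run, with a highest adjusted p of 0.0465. In A10 vs Con it was 0.21 (SE 0.11, adjusted p = 0.414), at 44.6 to 46.5 against 36.0 to 43.1 RPKM, and the difference between the 2 responses to AOS was 0.35 (SE 0.15, adjusted p = 0.361).

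In the transplant groups Slc40a1 was at 45.8, 46.0 and 34.2 RPKM in A10-FMT and at 32.4, 37.3 and 30.2 RPKM in Con-FMT. The difference of 0.32 (SE 0.11) had an adjusted p of 0.0515 and the groups overlapped through A10-FMT replicate 3. Without that library it was 0.46 with an adjusted p of 0.00531, and with each library scaled to the same median it was 0.40 with an adjusted p of 0.0125. Without Con-FMT replicate 3 it was 0.25 with an adjusted p of 0.165. Neither group differed from HS by more than the spread (0.21, adjusted p = 0.171, and -0.11, adjusted p = 0.48).

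Slc40a1 is also expressed by Kupffer cells, the liver macrophages, and Bmp6 by the sinusoidal endothelium, so the markers of these cells were examined. The 10 Kupffer markers summed to 89.6 to 110 RPKM in A10-FMT, 145 to 232 in HS and 118 to 200 in Con-FMT. In A10-FMT 8 of 10 were called lower than in HS, beside 21% of all genes. In HS+A10 the Kupffer markers summed to 132 to 191 RPKM, and 0 of 10 were called against HS, beside 7.32% of all genes. The 8 sinusoidal endothelial markers summed to 97.0 to 129 RPKM in HS+A10 against 71.6 to 93.4 in HS. Of these 8, 1 was called higher (Oit3), beside 2.95% of all genes. No marker of either list was at 0 in any library. The part of these markers in the levels of Slc40a1 and Tfrc was not tested, and in whole liver fewer cells of a type and less RNA per cell cannot be told apart.

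**Figure D3:**
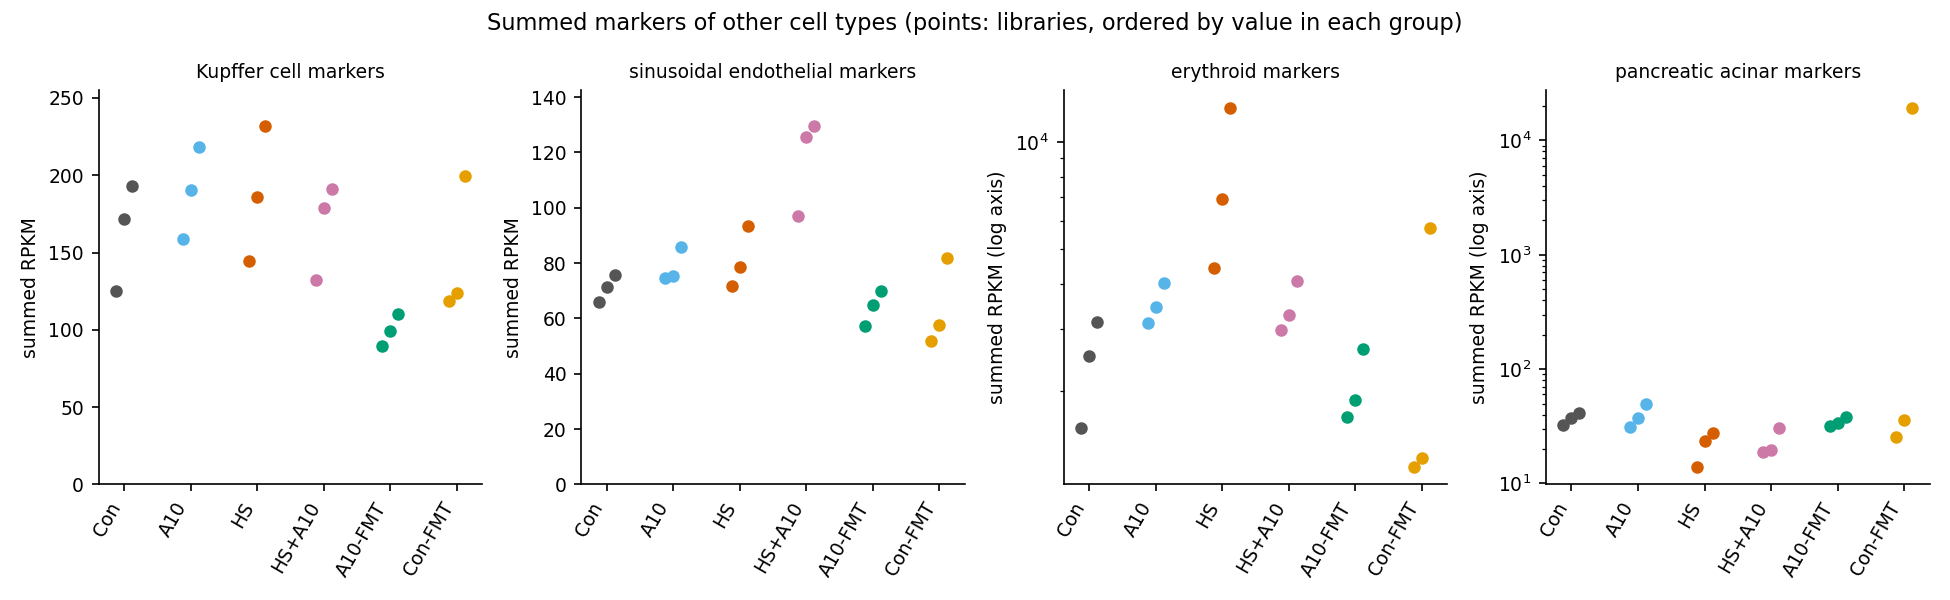
Summed RPKM (y axis, linear from 0 for Kupffer and endothelial markers, logarithmic for erythroid and acinar markers) of markers of 4 other cell types in each group (x axis), with 1 point per library. Kupffer sums were lowest in A10-FMT, endothelial sums highest in HS+A10, erythroid sums highest in HS, and 1 Con-FMT library stood apart at 19042 RPKM of acinar markers.

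Transferrin, the plasma carrier of iron that hepatocytes secrete, was the most abundant of the 10 mRNAs. Trf was at 7996 to 9165 RPKM in Con, 7741 to 8110 in A10, 7017 to 8524 in HS, 6713 to 7244 in HS+A10, 7002 to 9282 in Con-FMT and 5986 to 6958 in A10-FMT. The 4 groups with diet and STZ were lower than the other 2 groups by 0.20 (SE 0.07, adjusted p = 0.0348), with overlap, and the exact permutation test over all 18564 groupings gave p = 0.0187. The 4 groups did not share this evenly. HS+A10 (6951 RPKM) and A10-FMT (6396 RPKM) had the lowest means. Con-FMT (7923 RPKM) was at the mean of A10 (7921 RPKM), and HS vs Con was not called (-0.18, adjusted p = 0.266). The call for the 4 groups was lost under 17 of 26 alternatives, 13 of them single libraries left out, without which the difference ran from -0.23 to -0.18. The Con replicate 3 and A10 replicate 3 libraries were among these (without both, -0.21 with an adjusted p of 0.111). A10-FMT and Con-FMT did not overlap in Trf, at a difference of -0.30 (SE 0.11) with an adjusted p of 0.0747.

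The calls over the 9 genes tested are given here beside the share of all genes called. In HS vs Con 1 rose (Fth1), where 17.7% of all genes were called, 15.9% higher and 1.87% lower, and 36.8% did not overlap. In A10-FMT vs HS 4 were called, Hamp higher and Tfrc, Fth1 and Ftl1 lower, where 23.1% of all genes were called, 2.09% higher and 21% lower. In that comparison 5 of the 9 did not overlap, against 37.4% of all genes. In Con-FMT vs HS 2 fell (Tfrc and Fth1), where 23.6% of all genes were called, 4.61% higher and 19% lower. There 3 of the 9 did not overlap, against 35% of all genes. In A10-FMT vs Con-FMT 0 were called, 2 had an unadjusted limma p under 0.05, and the background was 18.8%, with 6.72% higher and 12% lower. Trf and Ftl1 did not overlap, against 31.5% of all genes. In HS+A10 vs HS 2 were called, Tfrc lower and Slc40a1 higher, with a background of 7.32%, or 2.95% higher and 4.37% lower, and these 2 alone did not overlap, against 27.4% of all genes. In A10 vs Con 0 were called and 1, Hamp2, had an unadjusted limma p under 0.05, where 0.049% of all genes were called higher and 0.0196% lower. Hamp2, Id1, Fth1 and Slc40a1 did not overlap, against 24.8% of all genes. In the 4 groups with diet and STZ against the other 2, 2 fell (Trf and Tfrc), with a background of 32.4%, or 20.3% higher and 12.1% lower, and none of the 9 was without overlap, against 2.66% of all genes. For the difference between the responses to AOS 0 were called, 3 had an unadjusted limma p under 0.05, and 0.0098% of all genes were called. Median scaling of the libraries moved the split of calls in HS vs Con from 1618 up and 191 down to 398 up and 486 down, and that in A10-FMT vs HS from 213 up and 2145 down to 639 up and 516 down.

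**Figure D4:**
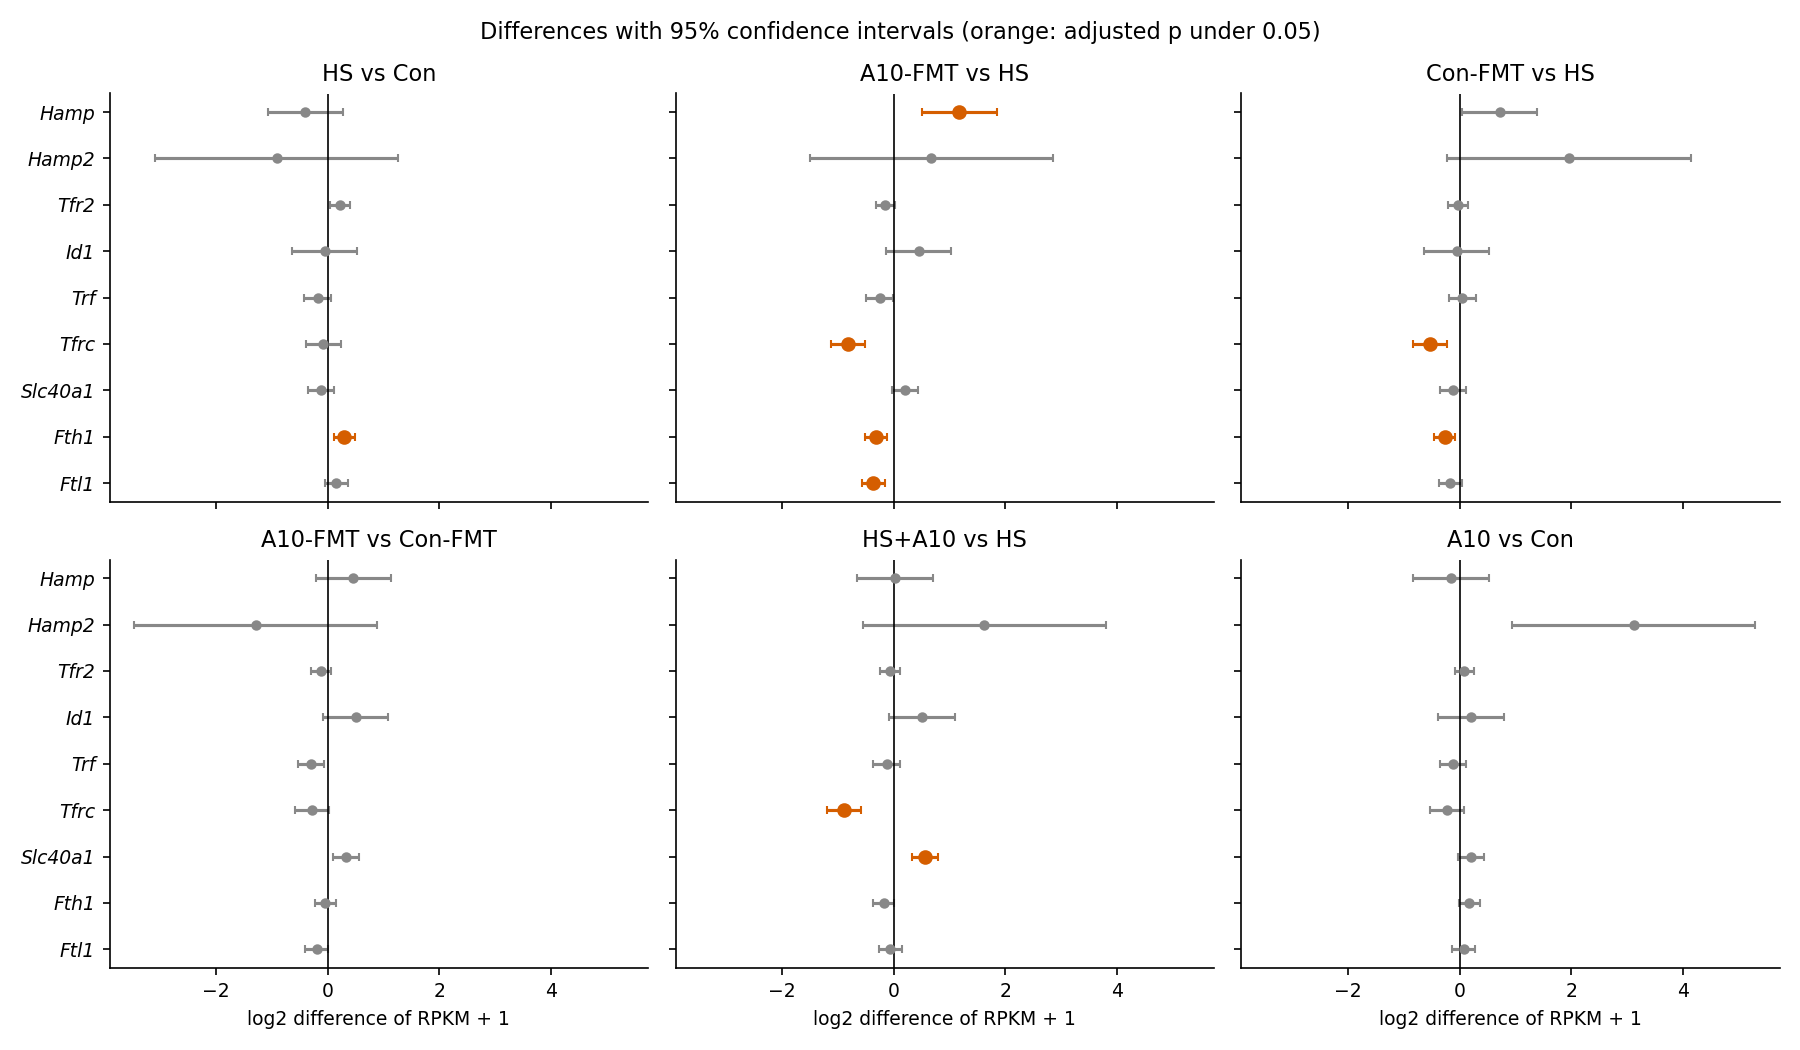
Differences of log2(RPKM + 1) (x axis) with 95% confidence intervals for the 9 genes tested (y axis) in 6 comparisons, with an adjusted p under 0.05 in orange. Hamp in A10-FMT vs HS (1.17) and Tfrc in HS+A10 vs HS (-0.89) are the called differences farthest from 0, and Hamp2 has the widest intervals.

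Other genes of iron uptake and plasma transport differed between the transplant groups. Of 9 tested from a list of 11, 6 were called lower and 0 higher in A10-FMT compared with Con-FMT, beside the 12% and 6.72% of all genes. The importer of non-transferrin iron Slc39a14 was at 35.9 ± 3.42 against 83.4 ± 18 RPKM (-1.18, adjusted p = 0.000131), the ferritin receptor Scara5 at 3.32 ± 0.46 against 12.4 ± 3.99 RPKM and the ferroxidase ceruloplasmin Cp at 275 ± 17.2 against 438 ± 58.5 RPKM. Against HS, where Slc39a14 was at 31.5 ± 4.16 and Scara5 at 2.58 ± 0.35 RPKM, both rose in Con-FMT.

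Steap3, the reductase that frees iron taken up with transferrin, rose from 8.18 ± 0.41 RPKM in Con to 13.5 ± 3.78 in HS. It fell again to 6.82 ± 0.55 RPKM in A10-FMT and, by about as much, to 6.72 ± 0.07 RPKM in Con-FMT. In HS vs Con the heme-hemopexin receptor Lrp1 rose as well, from 39.1 ± 1.07 to 51.7 ± 4.86 RPKM, and Scara5 fell from 8.17 ± 3.98 RPKM. Scara5 was also low in A10 (2.35 ± 0.45 RPKM, -1.36 vs Con, adjusted p = 0.0747). In the 4 groups with diet and STZ against the other 2 its difference was -0.16 (adjusted p = 0.481). The transporter Slc11a2 fell from 9.74 ± 0.62 RPKM in HS to 6.97 ± 0.19 in A10-FMT and 6.72 ± 0.64 in HS+A10, and Slc39a8 fell from 10.7 ± 0.80 to 8.34 ± 0.73 RPKM in A10-FMT. In the 4 groups with diet and STZ together Slc39a14 and Lrp1 were higher (0.51 and 0.27, adjusted p = 0.000615 and 0.00468) and Slc11a2 was lower (-0.43, adjusted p = 0.000615). For Slc39a14 this rested on Con-FMT, since HS, HS+A10 (32.2 ± 1.75 RPKM) and A10-FMT were near A10 (31.4 ± 5.82 RPKM), and HS vs Con was not called (0.20, adjusted p = 0.345).

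Of 10 genes for iron inside the cell, 3 fell and 0 rose in A10-FMT vs HS, where 21% of all genes were called lower and 2.09% higher. They were Hmox1, which breaks down heme (20.3 ± 2.12 to 10.8 ± 2.84 RPKM), Ncoa4, which delivers ferritin for degradation (54.1 ± 6.35 to 41.2 ± 1.19 RPKM) and Pcbp1, an iron chaperone for ferritin (119 ± 5.09 to 96.1 ± 6.19 RPKM). Hmox1 was also lower in A10-FMT than in Con-FMT (30.5 ± 6.39 RPKM, -1.43, adjusted p = 0.000334), as was Pcbp1, and the mitochondrial iron carrier Slc25a28 was higher there (12.3 ± 0.67 against 10.0 ± 0.64 RPKM). In HS+A10 vs HS Pcbp1 alone was called, at 94.6 ± 3.29 RPKM, and in HS vs Con it alone rose, from 99.5 ± 6.57 RPKM. In Con-FMT vs HS 0 of the 10 were called, beside 23.6% of all genes. Hmox1 is abundant in macrophages, and its level moved with the Kupffer sums given above in A10-FMT. In Con-FMT it did not, as Hmox1 was above all HS libraries (0.55, adjusted p = 0.0602) while all 10 Kupffer markers were lower, none of them called. The part of these markers in the level of Hmox1 was not tested. The 4 groups with diet and STZ together were higher in Pcbp1 (108 ± 13.4 against 98.3 ± 4.75 RPKM, adjusted p = 0.0454), although HS+A10 (94.6 RPKM) and A10-FMT (96.1 RPKM) were below both other groups and only HS and Con-FMT (120 ± 3.94 RPKM) were above them. They were lower in Hfe2 (21.5 ± 6.18 against 34.6 ± 4.10 RPKM, adjusted p = 9.55e-05).

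Genes that varied most like 4 of the 10 over the 18 libraries are given as a description, since libraries of a group share their treatment and all share the scaling of RPKM. For Hamp they were Proc, the plasma protein C (r = 0.79), C1s2, a complement protease (0.76), and Gtf2a2, a general transcription factor (0.74), and without the 2 libraries farthest from the median of Hamp r was 0.71, 0.70 and 0.67. For Tfrc they were Lsr, a lipoprotein receptor (0.93), Spcs2, a subunit of the signal peptidase (0.91), and Insc (0.90), each lowest in HS+A10 and highest in Con. For Slc40a1 they were Lpcat3, a phospholipid enzyme (0.89), Nr3c1, the glucocorticoid receptor (0.88), and 5031439G07Rik (0.86), each lowest in Con-FMT and highest in HS+A10. For Id1 they were Abtb1 (0.81), the mitochondrial thymidine kinase Tk2 (0.79) and Inpp5k (0.79). Spearman's rho lay between 0.74 and 0.92 for these 12 genes.

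**Figure D5:**
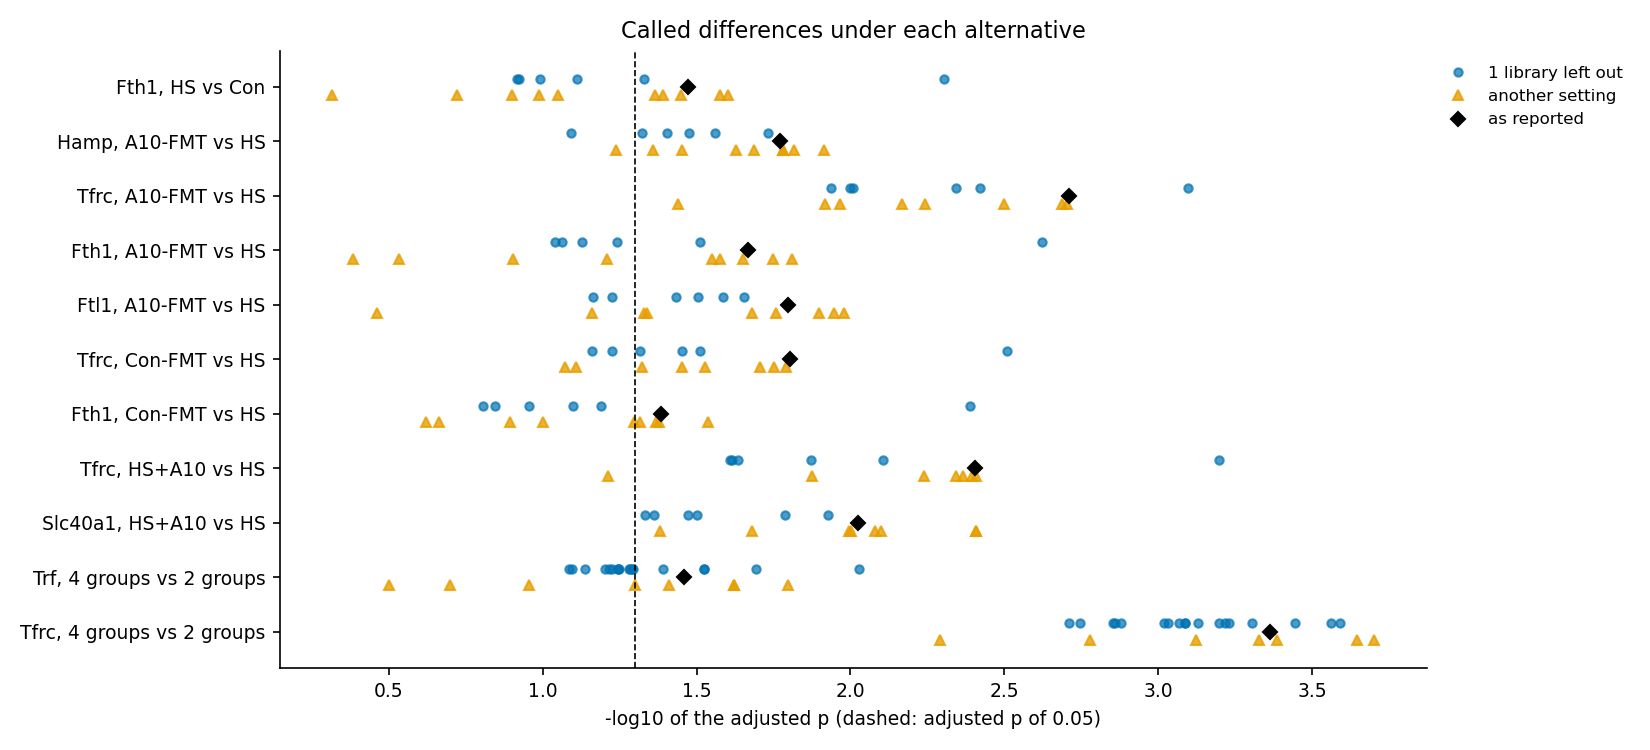
Minus log10 of the adjusted p (x axis, dashed line at 0.05) of the 11 called differences (y axis) as reported (diamonds), with 1 library left out (circles) and under other settings (triangles). Tfrc in A10-FMT vs HS, Slc40a1 in HS+A10 vs HS and Tfrc in the 4 groups with diet and STZ against the other 2 stayed to the right of the line under all alternatives run, and Fth1, Ftl1, Trf and others crossed it.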

How the data were processed

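Liver mRNA of 18 mice was enriched with oligo(dT), sequenced on an Illumina HiSeq and mapped by the authors to reference genes with SOAPaligner, allowing mismatches, and the authors deposited RPKM values with 2 decimals. The submitters' processing notes also name Bowtie 0.12.2 and the build mm10, with no role. Use of strand in counting is not given in the sources used here. No counting interval could be computed without read numbers. Steps between low values of 22 genes gave relative depths of 0.958 to 1.03. Genes were kept only where these steps were already alike across the libraries, so this estimate could not have shown widely unequal depths. Replicates are separate libraries of a group, and nothing in the labels says that each is a separate animal, so p-values measure the spread between libraries.

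A single limma fit with a variance trend and a mean for each group covered all 18 libraries, on the log2(RPKM + 1) scale, for genes averaging 1 RPKM or more (R 4.3.3, limma 3.58.1), two-sided, adjusted over 10204 genes. The script was tested on simulated data. The study's test, DEGseq, takes no account of replicate spread and was not used. Elements were searched in GENCODE transcripts of GRCm38 and motifs in RefSeq promoters (Python 3.11.15, Biopython 1.88).

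The 10 genes and all lists were chosen with earlier results of these data known. Named beside the 10 genes are, from 3 iron lists and the acute-phase list, called genes, at most the 3 with the smallest adjusted p per list and comparison, and the 3 genes most correlated with Hamp, Tfrc, Slc40a1 and Id1. Oit3, Hba-a1, Apob and Ttr were named from marker lists by the same rule, and Alb, Alas2, Slc4a1 and Epb42 after their values were seen. Some genes of the lists are not reported here. The settings varied were the pseudocount (0.1), the filter (none, or an average of 5 RPKM), median scaling, quantile normalization, a replicate block, fewer libraries in the fit, no variance trend and each library left out. Leaving out Con replicate 3 and A10 replicate 3 together was chosen after seeing the data. Replicate numbers were not taken as pairs. Correlations of deviations between libraries of the same number ran from -0.09 to 0.26, and no comparison had every pair over 0.1. In A10-FMT vs HS and in HS+A10 vs HS 2 pairs were over 0.1. Libraries of unlike number were not correlated, so pairing is not excluded.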

Additional observations from a re-analysis of the deposited data

How the results depend on the processing

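Of 72 differences of the tested genes, 11 were called, and none of these 11 changed sign under any alternative run. Of the 61 not called, 21 changed sign and 13 were called under at least 1 alternative. The number of the 9 genes called was as reported unless given here. With median scaling it was 0 in HS vs Con, 1 in Con-FMT vs HS and 1 in A10-FMT vs Con-FMT. With quantile normalization it was 0 in Con-FMT vs HS, 2 in A10-FMT vs Con-FMT and 1 in the 4 groups with diet and STZ against the other 2. With no filter it was 1 in Con-FMT vs HS and 1 in the 4 groups, and with a mean of at least 5 RPKM, where Tfrc was not tested, it was 1 in Con-FMT vs HS, in HS+A10 vs HS and in the 4 groups. With 12 libraries it was 0 in HS vs Con and 1 in Con-FMT vs HS. With only the groups compared it was 0 in HS vs Con, 2 in A10-FMT vs HS, 0 in Con-FMT vs HS, 1 in HS+A10 vs HS and 1 (Hamp2) in A10 vs Con. With the replicate block it was 1 (Slc40a1) in A10-FMT vs Con-FMT and 1 in the 4 groups. Pairing by number is not given in the labels and was not shown, so this block has no known basis in the design. Without Con replicate 3 and A10 replicate 3 it was 0 in HS vs Con and 1 in the 4 groups. With 1 library left out it ran from 0 to 1 in HS vs Con, 2 to 5 in A10-FMT vs HS, 0 to 2 in Con-FMT vs HS, 0 to 2 in A10-FMT vs Con-FMT, 2 to 4 in HS+A10 vs HS, 1 to 2 in the 4 groups and 0 to 2 for the difference between the responses to AOS, the last 2 without HS replicate 1 (Tfrc and Fth1). The cause of these losses was not tested. Over all genes the calls ran from 700 to 1800 in HS vs Con (1809 as reported), 846 to 2586 in A10-FMT vs HS (2358), 777 to 2429 in Con-FMT vs HS (2413), 687 to 2260 in A10-FMT vs Con-FMT (1914), 76 to 1233 in HS+A10 vs HS (747), 0 to 72 in A10 vs Con (7), 2078 to 3492 in the 4 groups (3310) and 0 to 118 for the difference between the responses to AOS (1). With median scaling the split of higher and lower calls was 858 and 1240 in Con-FMT vs HS (470 and 1943 as reported), 1302 and 958 in A10-FMT vs Con-FMT (686 and 1228), 579 and 356 in HS+A10 vs HS (301 and 446) and 1612 and 1880 in the 4 groups (2075 and 1235). The depth of the libraries is unknown, which limits Bmp6 and Hamp2 most, and precision rests on 3 libraries per group.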

Other observations

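Fth1 was higher in all 3 A10 libraries (1509 to 1554 RPKM) than in all 3 Con libraries (1307 to 1396 RPKM), a difference of 0.17 (adjusted p = 0.403), while HS+A10 stood below HS on average (-0.18). The difference between these responses was -0.35 (SE 0.13, adjusted p = 0.262). Without HS replicate 1 it was -0.47 with an adjusted p of 0.0434. The same library decided the count for Tfrc, whose difference between the responses was -0.83 without it (adjusted p = 0.0429).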
